A study of Mus musculus with 12 samples.

Results

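Osteocalcin is the bone protein that mouse osteoblasts make from 3 neighbouring genes, Bglap, Bglap2 and Bglap3. These genes were followed here together with 7 genes that supply or block mineral, namely Alpl, Phospho1, Smpd3, Slc20a1, Slc20a2, Enpp1 and Mgp. The 10 genes were chosen by name, though with earlier results of these data known, out of the 23715 genes of the table. All 10 were among the 13059 genes that passed the filter for testing. RNA-seq had been done on calvaria, the flat bones of the skull vault, of 12 newborn C57BL/6 mice in 4 groups of 3. In the first set, P-KO mice lacked Med23, a subunit of the Mediator complex, in mesenchymal stem cells (Med23-/-, made by Prx1-Cre and floxed Med23 alleles), and P-Ctrl mice were littermates whose genotype the labels give as WT and the methods as floxed without Cre. In the second set, R-Het mice carried 1 inactive allele of the bone transcription factor Runx2 (Runx2+/-) in all cells, and R-WT mice were their wild-type littermates. Prx1-Cre is active in mesenchyme of the limb and of parts of the head, so that cells of other origin in the same calvaria keep Med23.

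Mineral in bone forms when phosphate and calcium crystallize in matrix vesicles and along collagen fibrils. Tissue-nonspecific alkaline phosphatase (Alpl) removes pyrophosphate, which blocks crystals, while the ectoenzyme ENPP1 makes pyrophosphate. PHOSPHO1 frees phosphate inside the vesicle from phosphocholine, which neutral sphingomyelinase (Smpd3) releases from sphingomyelin, and the sodium-phosphate cotransporters encoded by Slc20a1 and Slc20a2 carry phosphate into cells. Osteocalcin and matrix Gla protein (Mgp) bind calcium through vitamin K-dependent residues. Osteocalcin is a late product of the osteoblast whose promoter is a textbook target of RUNX2, and matrix Gla protein is an inhibitor of calcification in arteries and cartilage.

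The coding sequences of the 3 osteocalcin genes are shown because their likeness decides how well short reads tell the genes apart. All 3 lie on the minus strand of chromosome 3 (GRCm38) in 4 exons each. They run from start to stop codon over chr3:88383635-88384415 for Bglap, chr3:88377870-88378650 for Bglap2 and chr3:88368756-88369536 for Bglap3. Capitals mark the bases that differ from Bglap.
Bglap: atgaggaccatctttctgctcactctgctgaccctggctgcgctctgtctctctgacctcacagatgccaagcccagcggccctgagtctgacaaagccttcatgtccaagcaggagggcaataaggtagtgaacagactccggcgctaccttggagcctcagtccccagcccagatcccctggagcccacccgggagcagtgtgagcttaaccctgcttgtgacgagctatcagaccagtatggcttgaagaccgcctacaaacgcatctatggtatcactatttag
Bglap2: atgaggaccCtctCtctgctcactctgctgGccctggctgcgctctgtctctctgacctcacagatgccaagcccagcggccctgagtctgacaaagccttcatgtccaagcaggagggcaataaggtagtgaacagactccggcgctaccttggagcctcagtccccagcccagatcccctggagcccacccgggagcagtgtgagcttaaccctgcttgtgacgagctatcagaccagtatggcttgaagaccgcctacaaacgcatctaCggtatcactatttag
Bglap3: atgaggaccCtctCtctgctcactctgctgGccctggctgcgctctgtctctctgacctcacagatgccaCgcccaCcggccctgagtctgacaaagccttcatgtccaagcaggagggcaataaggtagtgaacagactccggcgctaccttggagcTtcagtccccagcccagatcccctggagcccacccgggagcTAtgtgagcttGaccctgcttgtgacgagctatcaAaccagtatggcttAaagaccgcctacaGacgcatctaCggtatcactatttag
Each coding sequence was 288 bases long. Bglap2 differed from Bglap at 4 bases (98.6% identity), whereas Bglap3 differed from Bglap at 13 bases (95.5%) and from Bglap2 at 9 (96.9%). Of all stretches of 75 bases in the Bglap transcript, 66.1% occurred unchanged in the Bglap2 transcript and 3.01% in that of Bglap3. For stretches of 100 bases the shares were 56.3% and 0%. The split of reads between Bglap and Bglap2 is therefore uncertain, since the read length and the handling of shared reads are not given in the sources used here. The sum over the 3 genes, given beside the single genes, is less exposed to the split but not free of it, since FPKM divide by transcript lengths of 440, 471 and 717 bases and shared reads may have been dropped or counted more than once.

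The promoter of Bglap is shown because it holds the elements through which the osteoblast factors RUNX2 and ATF4 are known to act on osteocalcin, and that of the Bglap3 transcript measured here for comparison. Both stretches are the 250 bases before the start of the transcript, chr3:88384467-88384716 and chr3:88369832-88370081 (RefSeq, GRCm38.p6, minus strand). Capitals mark ACCACA (the core bound by RUNX factors), TTACATC (the start of the ATF4 element) and TATAAA (the TATA box), searched on both strands.
Bglap promoter: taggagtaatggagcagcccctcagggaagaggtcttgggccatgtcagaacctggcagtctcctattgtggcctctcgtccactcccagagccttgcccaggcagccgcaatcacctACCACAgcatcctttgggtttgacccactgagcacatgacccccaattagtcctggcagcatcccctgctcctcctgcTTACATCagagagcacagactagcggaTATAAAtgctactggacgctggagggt
Bglap3 promoter: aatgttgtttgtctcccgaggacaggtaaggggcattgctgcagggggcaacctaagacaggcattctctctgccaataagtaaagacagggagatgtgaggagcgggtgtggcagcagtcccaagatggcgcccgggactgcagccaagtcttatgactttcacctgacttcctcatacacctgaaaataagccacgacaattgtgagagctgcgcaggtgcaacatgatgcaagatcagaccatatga
The Bglap promoter held each of the 3 motifs in the direction of the gene, at positions -132 to -127, -54 to -48 and -27 to -22 from the start, without overlap between them. None of the 3 was found in the Bglap3 window. Among 32851 promoter windows of the same length, 14.0% held ACCACA, 2.1% held TTACATC and 12.4% held TATAAA. Of the 10 genes, 6 had promoter entries, 10 entries in all. ACCACA was found in 3 entries (Bglap, Enpp1 and 1 of Slc20a1), TTACATC in 1 (Bglap) and TATAAA in 2 (Bglap and 1 of Alpl). Bglap2, Slc20a2, Mgp and Smpd3 had no entry. A match of letters is a description of the sequence and not a measured binding site.

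The values were taken as FPKM, fragments scaled to transcript length and library size, summed over the RefSeq transcripts of a gene. From the smallest values the libraries were estimated to hold roughly 7600000 to 12300000 fragments. Neither targeted gene checked the labels by its level. Med23 was at 5.99, 5.42 and 4.54 FPKM in P-Ctrl mice and at 4.89, 5.74 and 5.28 in mice labelled P-KO, and Runx2 was at 29.8, 37.7 and 27.3 FPKM in R-WT mice and at 34.3, 30.4 and 35.7 in mice labelled R-Het. These values cover whole transcripts, so a loss of a few Med23 exons in a part of the cells need not show in them. The inactive Runx2 allele is carried in all cells, and why the Runx2 level was not lower in R-Het mice was not tested. Directions below follow the labels. Sexes were uneven. Xist, which is expressed from the inactive X chromosome of females, was at 37.8 to 49.1 FPKM in P-Ctrl 2, P-Ctrl 3 and R-WT 1 and at most 0.0663 in the 9 other mice, so both mutant groups held males only and 1 of 3 P-Ctrl mice was male. Markers of osteoblasts defined the tissue, with all 7 detected in every group. Their summed level was 21683 to 28986 FPKM in P-Ctrl and 14979 to 18681 in P-KO mice, which did not overlap, and 15218 to 23130 in R-WT and 16038 to 21672 in R-Het mice. In bulk tissue, fewer osteoblasts and less RNA per osteoblast cannot be told apart.

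The other genes lie apart (GRCm38.p6): Alpl at chr4:137741731-137796384, Phospho1 at chr11:95824500-95832140, Smpd3 at chr8:106252548-106337965, Slc20a1 at chr2:129198773-129211615, Slc20a2 at chr8:22476700-22569616, Enpp1 at chr10:24637914-24712159 and Mgp at chr6:136872435-136875823. FPKM are per length, so the genes could be ordered by level. In P-Ctrl mice the order of the means was Bglap at 9736 ± 1669 FPKM (SD over 3 mice, as for all group means), Bglap2 at 5063 ± 477, Mgp at 3346 ± 611, Alpl at 209 ± 39.1, Phospho1 at 105 ± 30.7, Enpp1 at 89.2 ± 35.7, Smpd3 at 47.8 ± 9.33, Slc20a2 at 31.7 ± 5.06, Slc20a1 at 16.6 ± 7.27 and Bglap3 at 10.4 ± 4.86. Neighbours in this order whose ranges overlapped were Phospho1 and Enpp1, and Slc20a1 and Bglap3. In P-KO mice Mgp, at 2863 ± 387 FPKM, stood above Bglap, at 2663 ± 1040, with overlapping ranges. Bglap lay above Bglap2 in 12 of 12 mice and above Mgp in 10 of 12. In the P-Ctrl mice Bglap was the 8th, 3rd and 10th highest of all genes, in the P-KO mice the 59th, 59th and 121st.

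**Figure D1:**
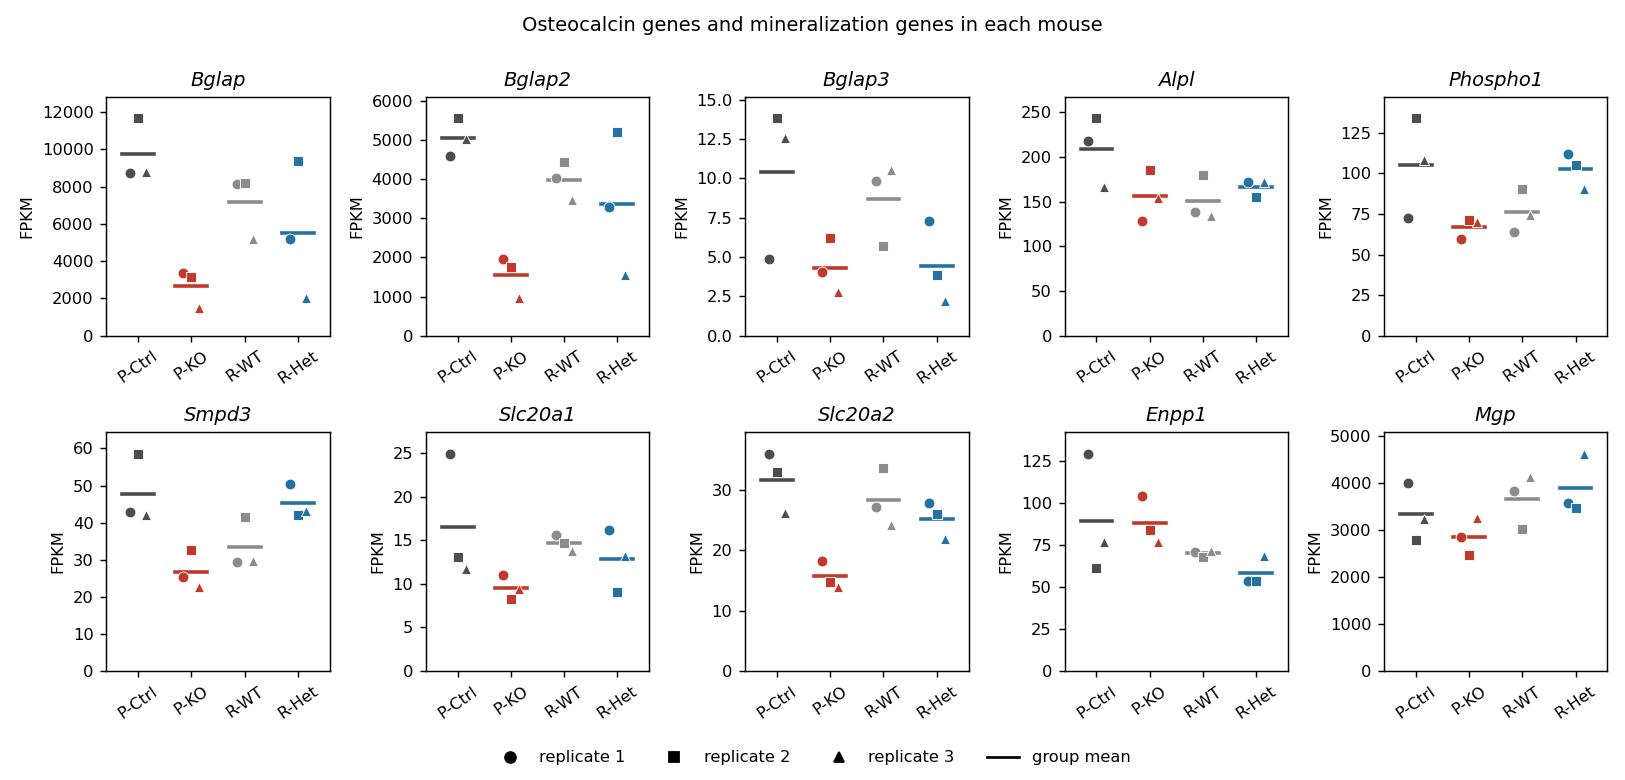
FPKM (vertical axes, linear, from 0) of the 10 genes in each of the 12 mice by group; symbols give the replicate number and lines the mean of 3 mice. Bglap and Bglap2 of all P-KO mice lay under all P-Ctrl mice, R-Het mice spread from 1995 to 9377 FPKM for Bglap, and Smpd3 was lower in all P-KO and higher in all R-Het mice than in their littermates.

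Osteocalcin transcripts fell in the calvaria of P-KO mice. Bglap was at 8757, 11663 and 8789 FPKM in P-Ctrl mice 1, 2 and 3 and at 3364, 3156 and 1468 in P-KO mice 1, 2 and 3. Bglap2 was at 4603, 5556 and 5030 FPKM against 1951, 1752 and 956. All P-KO mice lay under all P-Ctrl mice for both genes, with P-KO 3 lowest. By limma, Bglap was 3.86-fold lower (log2 fold change -1.95, SE 0.32, 95% confidence interval -2.69 to -1.21, adjusted p = 0.0401) and Bglap2 3.40-fold lower (-1.77, SE 0.26, -2.37 to -1.16, adjusted p = 0.0327). Bglap3, at 4.84, 13.8 and 12.6 FPKM in P-Ctrl and 4.03, 6.20 and 2.75 in P-KO mice, overlapped between the groups and did not pass the test (-1.04, -1.93 to -0.14, limma, adjusted p = 0.188). It rested on roughly 12 to 110 fragments per library, against 4100 or more for Bglap and Bglap2. The 3 genes summed made up 1.38% to 1.93% of all FPKM in P-Ctrl and 0.231% to 0.516% in P-KO mice, a 3.69-fold fall (-1.88, SE 0.30, -2.58 to -1.19, adjusted p = 0.0381).

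These calls rested on few mice. Leaving out any 1 of the 6 mice kept the fall of the sum between -2.09 and -1.52 on the log2 scale but ended its call (adjusted p 0.0615 to 0.123), and the same held for Bglap (0.0595 to 0.13), while Bglap2 stayed under the threshold only without P-KO 3 (adjusted p = 0.0447). These fits of 5 mice called 0 to 13 of all tested genes lower, against 73 with all 6 mice. With males only, 1 P-Ctrl mouse against 3 P-KO mice, the sum was lower by a log2 fold change of -1.74 (adjusted p = 0.213), in a fit that called 0 of all genes by limma at an adjusted p under 0.05 and 2153 at an unadjusted p under 0.05. With sex as a covariate in 1 fit of 12 mice, chosen after seeing the data, it was -1.74 (adjusted p = 0.132). Other markers moved with the groups: the erythroid sum (4 of 4 markers detected) was 6311 to 9063 FPKM in P-Ctrl and 3588 to 5739 in P-KO mice, and the groups did not overlap. The neural sum (3 and 4 of 5 markers at a mean of 1 FPKM or more) was 10.4 to 12.53 against 17.4 to 26.6 FPKM, and the smooth muscle sum (4 of 5 in both) 225 to 273 against 300.2 to 348, also without overlap. The skeletal muscle sum (7 and 8 of 8) was 20.6 to 1373 against 594 to 4147 FPKM, with overlap. Their part in the result was not tested.

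In R-Het mice no change of osteocalcin passed the test, and the mice spread widely. Bglap was at 8161, 8179 and 5197 FPKM in R-WT mice 1, 2 and 3 and at 5199, 9377 and 1995 in R-Het mice 1, 2 and 3. Bglap2 was at 4029, 4432 and 3456 FPKM against 3299, 5209 and 1554. R-Het 2 lay above every R-WT mouse and R-Het 3 under every R-WT mouse for both genes. The log2 fold change was -0.61 for Bglap (95% confidence interval -1.77 to 0.55, limma, adjusted p = 0.615) and -0.40 for Bglap2 (-1.29 to 0.48, adjusted p = 0.674). The interval of the sum, -1.59 to 0.52 around -0.53 (adjusted p = 0.635) by limma, included 0 and was wider than that of the P set.

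The difference in the R set turned on R-Het 3. Without it the sum differed by 0.02 (adjusted p = 0.984), Bglap by -0.01 and Bglap2 by 0.07 on the log2 scale, and without R-Het 2 the sum differed by -1.002 (adjusted p = 0.297). R-Het 3 also had the lowest erythroid marker sum of all 12 mice, 2025 FPKM, against 7625 to 9269 in R-WT mice. Bglap3 was at 9.80, 5.69 and 10.5 FPKM in R-WT and 7.26, 3.84 and 2.18 in R-Het mice, with overlap (-0.90, -1.70 to -0.11, adjusted p = 0.257).

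Neither change of Alpl, the alkaline phosphatase gene, passed the test. It was at 218, 243 and 167 FPKM in P-Ctrl and 128, 186 and 155 in P-KO mice, which overlapped (log2 fold change -0.42, 95% confidence interval -0.84 to -0.0028, limma, adjusted p = 0.233). Alpl in the R set was at 138, 180 and 134 FPKM in R-WT and 172, 156 and 172 in R-Het mice (0.15, -0.13 to 0.44, adjusted p = 0.612). Both intervals left out a change of the size measured for Bglap in P-KO mice.

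Phospho1 and Smpd3, which act in sequence on sphingomyelin to free phosphate in matrix vesicles, had lower values in P-KO and higher values in R-Het mice. Phospho1 was at 72.8, 134 and 109 FPKM in P-Ctrl and 59.7, 71.3 and 69.8 in P-KO mice, without overlap (log2 fold change -0.60, -1.09 to -0.12, adjusted p = 0.166). It was at 63.7, 90.7 and 74.1 FPKM in R-WT and 112, 105 and 90.2 in R-Het mice, where R-Het 3 fell just under R-WT 2 (0.43, 0.10 to 0.76, adjusted p = 0.193). Neither change passed the test over all genes.

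Smpd3 was at 42.7, 58.6 and 42.1 FPKM in P-Ctrl and 25.2, 32.5 and 22.7 in P-KO mice (log2 fold change -0.81, -1.21 to -0.41, adjusted p = 0.0664). In the R set it was at 29.3, 41.4 and 29.7 FPKM in R-WT and 50.4, 42.1 and 43.0 in R-Het mice (0.44, 0.10 to 0.77, adjusted p = 0.199). Every P-KO mouse lay under every P-Ctrl mouse and every R-Het mouse over every R-WT mouse, a pattern that 44 of the 13059 tested genes (0.337%) shared. The 2 changes differed by -1.24 on the log2 scale (SE 0.24, -1.78 to -0.71), which had an unadjusted p of 0.000291 and an adjusted p of 0.0625 in the limma interaction test. Other markers separated the R set without overlap as well. The skeletal muscle sum (8 and 6 of 8 markers at a mean of 1 FPKM or more) was 1899 to 5602 FPKM in R-WT and 25.2 to 186 in R-Het mice, the osteoclast sum (5 and 4 of 5) 4399 to 5820 and 2960.3 to 3637, and the endothelial sum (4 of 4 in both) 49.5 to 53.9 and 38.2 to 43.4. Over 12 mice the deviations of Smpd3 had r = -0.603 with those of the skeletal muscle sum and r = 0.819 with those of the osteoblast sum, as a description, and the part of these cells in the result was not tested. For the difference between the sets, leaving out P-KO 2 or R-WT 2 gave an adjusted p of 0.02 or 0.0349, and leaving out any 1 of the other 10 mice 0.0505 to 0.174.

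The phosphate transporter genes differed from each other. Slc20a2, which encodes the more abundant transcript of the pair, was at 36.0, 33.1 and 26.2 FPKM in P-Ctrl and 18.3, 14.8 and 14.0 in P-KO mice. All P-KO mice lay well under all P-Ctrl mice, and the gene fell 1.96-fold (log2 fold change -0.97, SE 0.15, -1.31 to -0.63, limma, adjusted p = 0.0335). With sex as a covariate it fell by 1.08 on the log2 scale (limma, adjusted p = 0.0326). It was the only 1 of the 10 genes called in that fit, which called 64 lower and 74 higher of the 13059 tested. Leaving out any 1 mouse ended the call (adjusted p 0.0748 to 0.116), with values between -1.097 and -0.87. In the R set Slc20a2 was at 27.2, 33.7 and 24.2 FPKM in R-WT and 27.8, 26.1 and 21.9 in R-Het mice (-0.16, -0.48 to 0.17, adjusted p = 0.653).

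Slc20a1 was at 24.9, 13.1 and 11.7 FPKM in P-Ctrl and 10.97, 8.32 and 9.46 in P-KO mice. The groups did not overlap, though P-Ctrl 1 stood far above the other controls, and the difference did not pass the test (log2 fold change -0.66, -1.27 to -0.06, adjusted p = 0.206). Without P-Ctrl 1 it was -0.35 (adjusted p = 0.23). Slc20a1 in the R set was at 15.7, 14.7 and 13.8 FPKM in R-WT and 16.2, 9.07 and 13.2 in R-Het mice (-0.22, -0.63 to 0.20, adjusted p = 0.619), and without R-Het 2 the difference was -0.0066. It was the only 1 of the 10 genes with more than 1 RefSeq transcript in the table.

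Neither inhibitor gene passed the test in either set. Enpp1 was at 129, 61.2 and 77.0 FPKM in P-Ctrl and 104, 84.3 and 77.0 in P-KO mice, which overlapped fully (log2 fold change 0.05, -0.56 to 0.66, adjusted p = 0.941), and its sign turned with the scaling (-0.03 with size factors by the median of ratios). Enpp1 in the R set was at 71.2, 67.7 and 71.7 FPKM in R-WT and 53.7, 53.8 and 68.3 in R-Het mice (-0.27, -0.52 to -0.01, adjusted p = 0.295), where only R-Het 3 reached the R-WT range. Mgp was at 4005, 2799 and 3235 FPKM in P-Ctrl and 2861, 2477 and 3252 in P-KO mice (-0.22, -0.60 to 0.17, adjusted p = 0.482). In the R set Mgp was at 3835, 3028 and 4127 FPKM in R-WT and 3579, 3485 and 4631 in R-Het mice (0.09, -0.30 to 0.48, adjusted p = 0.856). All groups overlapped for Mgp.

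**Figure D2:**
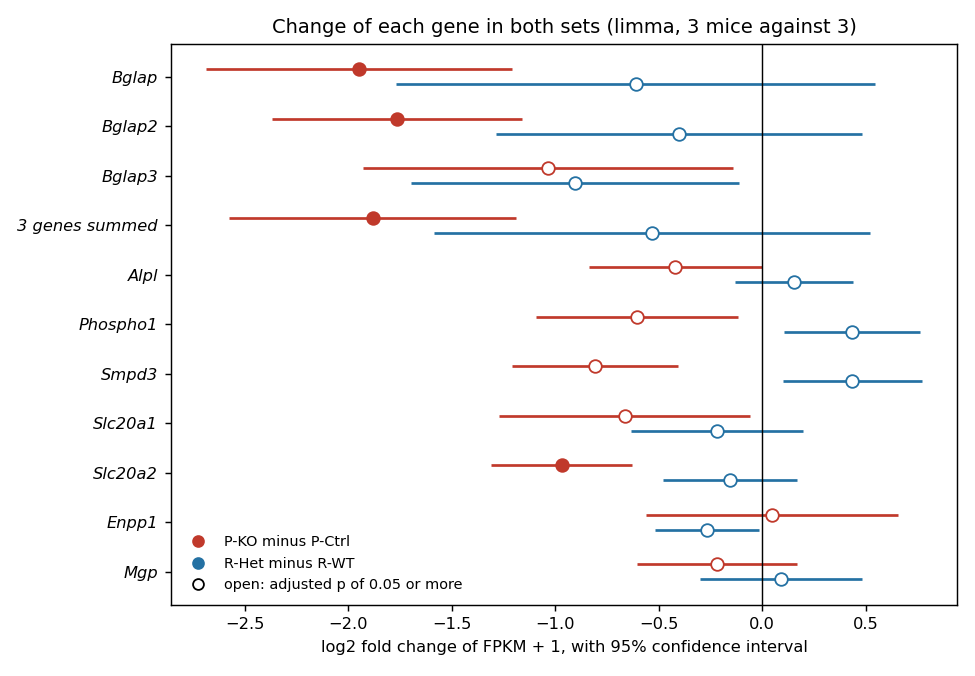
Log2 fold change (horizontal axis) of each gene and of the 3 osteocalcin genes summed, P-KO minus P-Ctrl in red and R-Het minus R-WT in blue, with the 95% confidence interval from limma; filled points had an adjusted p under 0.05. Bglap, Bglap2, the sum and Slc20a2 were filled in the P set at -1.95, -1.77, -1.88 and -0.97, and none in the R set.

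Counts over the 10 genes are a description and no test of the group, since the genes were chosen with earlier results of these data known. Over the 10 genes, 9 had a negative and 1 a positive fold change in P-KO mice, against 38.7% and 61.3% of all tested genes. By limma 3 were called lower (Bglap, Bglap2 and Slc20a2) and 0 higher, where 0.559% of all tested genes were called lower, 1.01% higher and 1.57% either way. At an unadjusted p under 0.05 there were 8 lower and 0 higher, where 5.63% and 15.7% of tested genes were (21.3% either way). Groups did not overlap for 6 of the 10, all lower in P-KO mice, where 7.68% of tested genes were lower without overlap and 19.6% higher. With males only, P-Ctrl 1 was the single control. Log2 fold changes were then -0.19 for Bglap3, -0.12 for Phospho1, -1.30 for Slc20a1, -0.56 for Enpp1 and -0.49 for Mgp. With every mouse these were -1.04, -0.60, -0.66, 0.05 and -0.22. Closer to the values with every mouse were -1.81 for Bglap, -1.63 for Bglap2, -1.16 for Slc20a2, -0.50 for Alpl and -0.67 for Smpd3. With every mouse these were -1.95, -1.77, -0.97, -0.42 and -0.81. The median of the 10 with every mouse was -0.74, against 0.06 over all tested genes. In all, 73 genes were called lower and 132 higher in P-KO mice, a split that turned to 86 lower and 57 higher with size factors by the median of ratios, under which 3 of the 10 genes were still called. In R-Het mice 6 of the 10 genes had a negative and 4 a positive fold change, against 43.9% and 56.1% of tested genes, and limma called 0, where 1.49% of tested genes were called lower, 0.398% higher and 1.89% either way. At an unadjusted p under 0.05 there were 2 lower (Bglap3 and Enpp1) and 2 higher (Phospho1 and Smpd3), where 8.32% and 7.09% of tested genes were (15.4% either way). Groups did not overlap for 1, Smpd3, which was higher, where 10.7% of tested genes were higher and 10.4% lower without overlap. The median was -0.19, against 0.02 over all tested genes.

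Whether a gene changed differently in the 2 sets was tested by the interaction in 1 fit of all 12 mice. By limma 0 of the 10 genes passed, where 0.153% of tested genes did (0.0919% with the lower value in the P set, 0.0613% with the higher). Of the 10, 9 had the lower value in the P set, where 44.3% of tested genes had the lower and 55.7% the higher. At an unadjusted p under 0.05 there were 5, all with the lower value in the P set, where 4.17% of tested genes had the lower and 11.1% the higher (15.3% either way). These were Smpd3, Phospho1 (-1.04, -1.64 to -0.43, adjusted p = 0.11), Slc20a2 (-0.81, -1.29 to -0.34, adjusted p = 0.11), Bglap2 (-1.36, -2.50 to -0.22, adjusted p = 0.24) and Alpl (-0.57, -1.09 to -0.06, adjusted p = 0.266). For the osteocalcin sum the difference was -1.35 (-2.69 to -0.01, adjusted p = 0.323). The 5 other genes had differences of -1.34 (Bglap, -2.81 to 0.13), -0.13 (Bglap3, -1.41 to 1.14), -0.45 (Slc20a1, -1.21 to 0.32), 0.31 (Enpp1, -0.36 to 0.99) and -0.31 (Mgp, -0.84 to 0.23). The fall of osteocalcin in P-KO mice was thus not shown to differ from the change in R-Het mice.

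Ratios within a mouse hardly depend on how its library was scaled. The log2 ratio of summed osteocalcin to Alpl was 5.93, 6.14 and 6.37 in P-Ctrl and 5.37, 4.72 and 3.96 in P-KO mice, without overlap, a difference of -1.46 (p = 0.1 by an exact permutation test, two-sided, which cannot go below 0.1 with groups of 3). The same ratio was 6.45, 6.13 and 6.00 in R-WT and 5.62, 6.54 and 4.36 in R-Het mice (-0.69, exact permutation p = 0.5), a difference that shrank to -0.11 without R-Het 3. Osteocalcin was also lower relative to the summed osteoblast markers, a sum made up mostly of 3 matrix genes. These were Col1a1, Col1a2 and Sparc, at means of 7254, 8755 and 7788 FPKM in P-Ctrl mice. Dmp1, a marker at a mean of 231 FPKM there and named after its values were seen, had a log2 fold change of -1.02 in P-KO mice (limma, adjusted p = 0.124). The log2 ratio of summed osteocalcin to these markers, a ratio added after the values were seen, was -0.70, -0.75 and -0.88 in P-Ctrl and -1.71, -1.93 and -2.63 in P-KO mice (-1.31, exact permutation p = 0.1). The single male P-Ctrl mouse, P-Ctrl 1, had the highest of these values, -0.70, and the part of sex in the ratio was not tested. In the R set this ratio was -0.52, -0.87 and -0.81 in R-WT and -1.35, -0.44 and -2.17 in R-Het mice (-0.58, exact permutation p = 0.4). The difference shrank to -0.16 without R-Het 3.

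The balance of the pyrophosphate enzymes was not shown to change. The log2 ratio of Alpl to Enpp1 was 0.75, 1.97 and 1.102 in P-Ctrl and 0.29, 1.13 and 1.00 in P-KO mice (-0.47, exact permutation p = 0.5), and 0.95, 1.40 and 0.90 in R-WT and 1.66, 1.52 and 1.32 in R-Het mice (0.42, exact permutation p = 0.2). Both sets overlapped. Bglap made up 65.6% ± 2.07 of the osteocalcin sum in P-Ctrl and 62.6% ± 1.94 in P-KO mice (exact permutation p = 0.2), and 63.9% ± 3.55 in R-WT and 60.5% ± 4.08 in R-Het mice (p = 0.4, exact permutation test; SD, n = 3). Bglap3 made up at most 0.105% on average in any group.

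**Figure D3:**
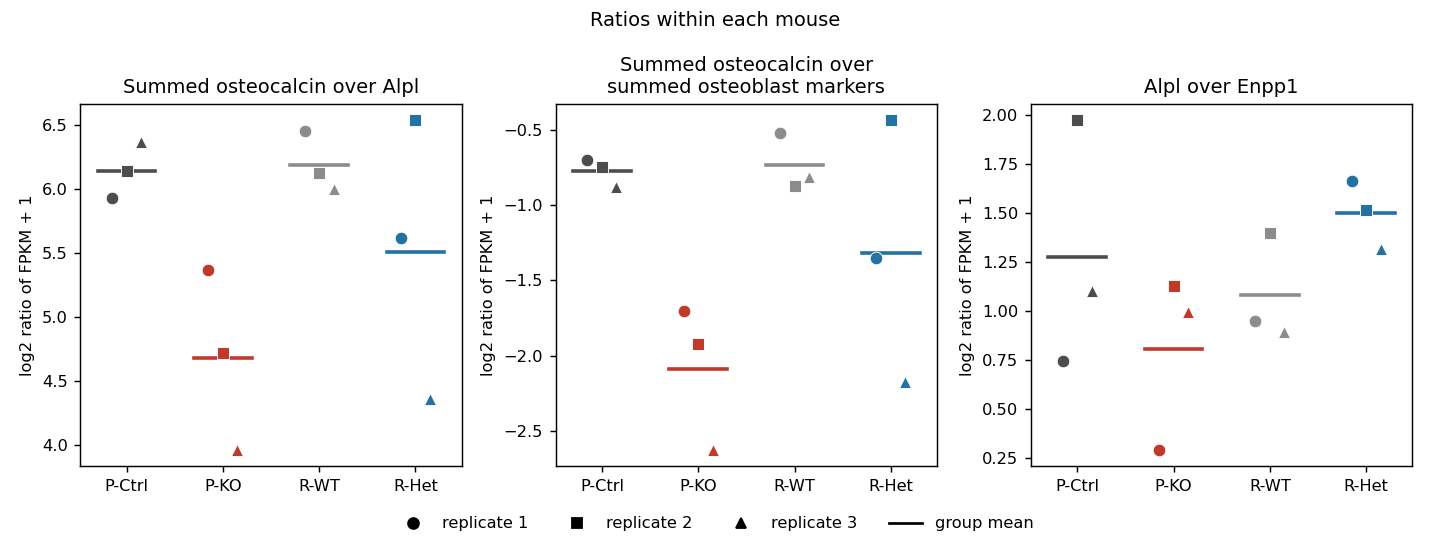
Log2 ratios of FPKM + 1 within each mouse (vertical axes) by group, with symbols for the replicate number and lines for the mean of 3 mice. For both osteocalcin ratios all P-KO mice lay under all P-Ctrl mice, by -1.46 and -1.31 on average. R-Het 1 and R-Het 3 lay under all R-WT mice and R-Het 2 over them.

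Mice of the same group were then compared, to ask which mineralization genes varied with osteocalcin. Deviations of log2(FPKM + 1) from the group mean were correlated over 12 mice, for 24 pairs of genes, with p-values from all 1296 permutations of mice within groups and Benjamini-Hochberg adjustment over the 24. Bglap and Bglap2 went together (Pearson r = 0.986, permutation p = 0.000772, the smallest possible, adjusted p = 0.0185; Spearman rho = 0.965, p = 0.000772, adjusted p = 0.0185). These genes share most of their sequence and their reads, so the relation is partly built in. Without the 2 mice farthest from the median of Bglap it was r = 0.937.

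Against the 7 other genes, 1 of 21 relations passed. Mgp was lower in mice with more Bglap2 (r = -0.708, permutation p = 0.00386, adjusted p = 0.0463; rho = -0.734, p = 0.00617, adjusted p = 0.0741), and the value for Bglap was alike but did not pass (r = -0.723, p = 0.01, adjusted p = 0.0802; rho = -0.727, p = 0.0147, adjusted p = 0.117). The Bglap2 value was -0.636 within the P set and -0.783 within the R set. Without the 2 mice farthest from the median of Bglap2 it was r = -0.653, and without R-Het 3 r = -0.594. In either case 0 of the 24 relations passed, that of Bglap to Bglap2 included. Fewer mice leave fewer permutations, and the smallest possible p was then too large for a single relation to pass after adjustment. Relations could then pass only if more than 1 of them lay at or near that smallest p. These counts of 0 therefore do not decide on any single relation. Over the 12 mice without removing group means, r of Bglap2 and Mgp was 0.05. Replicate 3 had the highest Mgp in 3 of 4 groups and the lowest Bglap2 in 3 of 4, which the permutations within groups do not take into account. The osteoblast marker sum deviated with Mgp in the opposite direction (r = -0.954) and with summed osteocalcin in the same direction (r = 0.653). Other sums moved too. The neural and erythroid sums had r = 0.759 and 0.70 with summed osteocalcin, and -0.424 and -0.569 with Mgp. The endothelial and osteoclast sums had r = -0.637 and 0.626 with Mgp, and 0.282 and -0.243 with summed osteocalcin. The part of these sums in the relation was not tested.

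The phosphate-releasing enzymes did not pass. Bglap and Alpl had r = 0.02 (permutation p = 0.935; rho = 0.126), Bglap and Phospho1 r = 0.246 (p = 0.318; rho = 0.315), and Bglap and Smpd3 r = 0.349 (p = 0.25; rho = 0.434, permutation test), all with adjusted p of 0.549 or more. Slc20a2 had the highest positive value, r = 0.566 with Bglap (permutation p = 0.0671, adjusted p = 0.359; rho = 0.517). Without removing group means it was r = 0.842, but the P-KO mice formed a cluster of their own there, and that value was not tested. Across Bglap3 the relations ranged from -0.624 with Enpp1 to 0.514 with Phospho1, none with an adjusted p for r under 0.509.

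**Figure D4:**
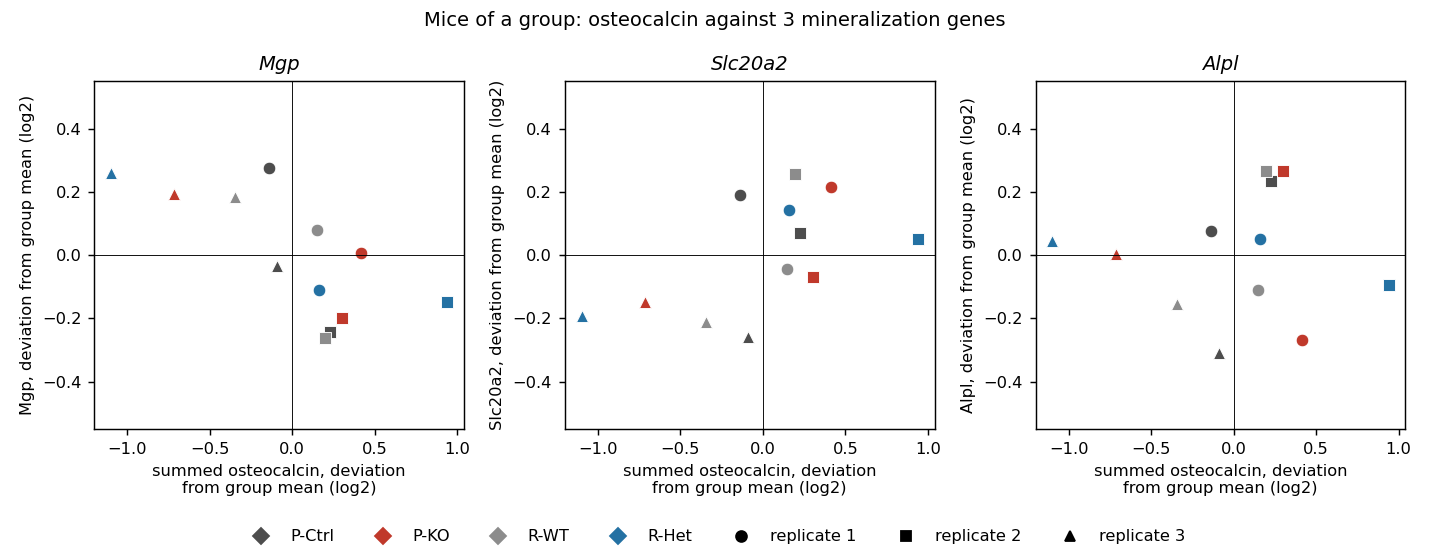
Deviation of Mgp, Slc20a2 and Alpl from the group mean (vertical axes, log2) against that of summed osteocalcin (horizontal axes, log2) in 12 mice, coloured by group with symbols for the replicate number. Mgp was over its group mean in R-Het 3, P-KO 3 and R-WT 3, which had the lowest osteocalcin of their groups, and Alpl showed no trend.

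Genes outside the 10 that followed osteocalcin from mouse to mouse more closely were named by the correlation of their deviations from the group means with those of the sum over 12 mice, as a description with no test. Of 12417 candidates these were Cndp2 (r = 0.968), Ppfia2 (r = 0.968), Uso1 (r = 0.951), Bid (r = 0.944) and Metrnl (r = 0.943). Their levels ranged over the mice from 18.7 to 28.7 FPKM for Cndp2, which encodes a dipeptidase, and from 34.2 to 48.7 for Metrnl, which encodes a secreted protein. None of the 5 was called in either set, with P-set log2 fold changes between -0.35 and 0.19. Slc20a2 took place 1479 and Mgp place 12223 when set against the same candidates.

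The wider pathway was read from 8 lists of 69 genes, of which 55 were tested. In P-KO mice 37 of the 55 had a negative and 18 a positive fold change, and 4 were called, all lower. In R-Het mice it was 26 and 29, with 3 called lower and 2 higher. Of all tested genes 0.559% were called lower in P-KO mice, and 1.49% lower and 0.398% higher in R-Het mice, so the called shares of the listed genes stood above these backgrounds, though the lists were chosen with earlier results of these data known.

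Genes that process osteocalcin and matrix Gla protein after translation include the carboxylase and the vitamin K reductases. Of 8 listed, 7 were tested, with 5 negative and 2 positive fold changes in P-KO mice and a median of -0.18. Only Fam20c, which encodes a kinase of secreted matrix proteins, was called. It was at 30.3 to 34.5 FPKM in P-Ctrl and 12.8 to 17.6 in P-KO mice (log2 fold change -1.07, SE 0.12, limma, adjusted p = 0.021), and at 25.7 to 33.2 in R-WT and 17.7 to 21.8 in R-Het mice, without overlap in either set though not called in the latter (-0.54, adjusted p = 0.0713). The vitamin K reductase gene Vkorc1, at a mean of 565 FPKM, had values of -0.01 and -0.02 in the P and R sets, and the carboxylase gene Ggcx, at 12.7 FPKM and named after its values were seen, of -0.20 and 0.14.

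Among 9 tested genes of a list of other mineralization inhibitors and nucleators, all 9 had a negative fold change in P-KO mice (median -0.62) and 6 in R-Het mice (median -0.24). Of all tested genes, 38.7% and 43.9% had one. Col1a1, Col1a2, Sparc, Ibsp and Dmp1 of this list also belong to the osteoblast marker sum. The only call was Fetub, a fetuin, at 2.04 to 2.43 FPKM in P-Ctrl and 0.469 to 0.933 in P-KO mice (-0.87, limma, adjusted p = 0.0479), a level that rests on few fragments. Osteopontin (Spp1), the most abundant of the list at a mean of 13664 FPKM, had -0.53 (adjusted p = 0.223) in P-KO and -0.77 (adjusted p = 0.0746) in R-Het mice. For bone sialoprotein (Ibsp), named after its values were seen, they were -0.34 (adjusted p = 0.297) and -0.81 (adjusted p = 0.0551). It was at 907 to 1402 FPKM in R-WT and 627 to 699 in R-Het mice, which did not overlap. The collagen genes Col1a1 (-0.70) and Col1a2 (-0.62) and Sparc (-0.44) had negative values in P-KO mice and values of 0.18, 0.04 and 0.11 in R-Het mice, none called.

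All 14 transcription factors of the list, chosen as factors known to act on Bglap, were tested. The vitamin D receptor gene Vdr was at 33.2 to 39.7 FPKM in P-Ctrl and 24.5 to 25.3 in P-KO mice (log2 fold change -0.52, limma, adjusted p = 0.043), and had -0.11 in R-Het mice (adjusted p = 0.845). Hey1, a Notch target and repressor, was called lower in both sets, at 12.3 to 13.9 against 5.81 to 8.24 FPKM in the P set (-0.87, adjusted p = 0.036) and 11.2 to 13.3 against 6.39 to 8.67 in the R set (-0.65, adjusted p = 0.0467). Msx2 and Twist2 were called higher in R-Het mice by limma, with 0.55 (adjusted p = 0.0474) and 0.59 (adjusted p = 0.0309). The difference between the sets did not pass for either (limma, adjusted p = 0.473 and 0.124). Runx2 itself had -0.40 (adjusted p = 0.127) in P-KO and 0.09 in R-Het mice, Sp7 -0.42 and 0.08, and Atf4, at a mean of 139 FPKM, 0.04 and 0.05.

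In the other lists no gene was called in P-KO mice. Phosphate and pyrophosphate handling had 6 of 11 genes tested, with medians of 0.08 and 0.14, and the phosphate exporter gene Xpr1 was called lower in R-Het mice (21.3 to 24.3 FPKM in R-WT, 15.1 to 16.6 in R-Het, -0.52, adjusted p = 0.0336). Relatives of Alpl, Enpp1 and Phospho1 had 5 of 8 tested, with medians of -0.06 and -0.14, and Enpp5 was called lower in R-Het mice (-0.56, adjusted p = 0.034). The other sphingomyelin and phosphocholine enzymes, 8 of 9 tested, had medians of -0.06 and 0.02, and the 6 matrix vesicle annexins medians of 0.12 and -0.04. The intestinal phosphatase genes were listed at or near 0, and of the receptors proposed for osteocalcin, Gprc6a, Gpr158 and Gpr37, none passed the filter.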

How the data were processed

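RNA-seq values of 12 calvariae in 4 groups were used as deposited. Per the labels, total RNA was taken with TRIzol, libraries followed the TruSeq protocol, and the submitters' processing notes name Bowtie 0.12.8 and mm10. The authors' values were taken as FPKM per RefSeq transcript. The paper's RNA-seq methods name no unit, and sums of 891329 to 1068933 per mouse do not settle it. The program that made the values, the read length and the treatment of shared reads are not given in the sources used here. Of 30411 transcripts, 29835 were named from the NCBI gene table, 180 from GENCODE M21, and 396 kept their identifier. FPKM were summed per gene symbol into 23715 genes.

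The 13059 genes that reached 1 FPKM in 3 or more mice were tested as log2(FPKM + 1), so fold changes of low genes are understated. Each set was fitted with limma 3.58.1 (R 4.3.3) with a mean-variance trend, and the difference between the sets in 1 fit of 12 mice, with Benjamini-Hochberg adjustment over all tested genes and a threshold of 0.05. Ratios were compared by exact permutation tests, and relations by permutation within groups (numpy 2.4.6, scipy 1.17.1, pandas 2.3.3, Python 3.11.15, matplotlib 3.10.9). The scripts were tested on simulated data. Depth was estimated from the smallest values and is rough.

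All 10 genes are named, with the called genes of each pathway list or otherwise at most its 4 genes of highest mean FPKM, and the 5 genes most like osteocalcin. The genes and lists were chosen with earlier results of these data known. Replicate numbers were not taken to pair the mice. Nothing in the labels says that the mice of a group came from separate litters, so p-values measure the spread between these mice.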

Additional observations from a re-analysis of the deposited data

Results flagged for a closer look

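Smpd3, the neutral sphingomyelinase gene, was singled out because every P-KO mouse lay under every P-Ctrl mouse while every R-Het mouse lay over every R-WT mouse. The log2 fold change in the P set minus that in the R set was -1.245, with an adjusted p of 0.0625 in the limma interaction test, and over 20 alternatives the difference ranged from -1.40 to -1.02 with adjusted p from 0.02 to 0.278. The cause was not tested.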

How the results depend on the processing

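Fold changes of the 10 genes and the osteocalcin sum kept their direction and their side of the threshold in 526 recalculations, lost a call in 41, gained one in 7 and turned in 20. The 526 include genes that were not called as reported and stayed so. Calls as reported were only those of Bglap, Bglap2, Slc20a2 and the sum in the P set. Of 17 alternatives each, these kept their call in 6, 8, 7 and 6. In P-KO mice the genes called among the 10, 3 as reported, were 0 without the filter on low values, without moderation or with males only, and 1 without the mean-variance trend or with sex as a covariate. Leaving out 1 mouse gave 0 to 1. Of all 13059 tested genes, limma called 39 lower and 50 higher without the trend, and 64 and 74 with sex as a covariate. Without the filter limma called 0 genes lower and 1 higher of 18403 (3108 at an unadjusted p under 0.05), and without moderation or with males only 0 of 13059 (2356 and 2153), so these counts say nothing particular about the 10 genes. The osteocalcin sum lost its call at -1.88 without the filter, the trend or moderation (adjusted p 0.0876, 0.0539 and 0.154), at -1.74 with males only (0.213) or sex as a covariate (0.132), and at -2.09 to -1.52 without 1 mouse. The pathway genes called, 4 as reported, were 0 without the filter, with males only, without moderation and without any 1 mouse, 2 without the trend and 1 with sex as a covariate. In R-Het mice the pathway genes called, 5 as reported, were 0 without the filter, with males only or without moderation. They were 1 in the fit of all 12 mice or with sex as a covariate, and 0 to 2 without 1 mouse. They were 3 without the trend or when the sums of all mice were set equal, with or without muscle genes. Over all tested genes, 195 were called lower and 52 higher in the fit as reported. Without the filter these were 7 and 7, with males only 28 and 6, and without moderation 1 and 0. The fit of all 12 mice called 56 and 39, sex as a covariate 113 and 36, and no trend 145 and 38. Equal sums gave 163 and 39, and 169 and 38 without muscle genes. Leaving out 1 mouse gave 28 to 135 lower and 6 to 34 higher.

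Direction turned for Enpp1 in the P set at -0.0551 with equal sums, -0.0261 with size factors by the median of ratios, -0.56 with males only, -0.24 with sex as a covariate and -0.0523 with equal sums without muscle genes, and ranged from -0.18 to 0.35 without 1 mouse. In the R set, values without 1 mouse ranged from -0.80 to 0.0689 for Bglap2, from -0.0415 to 0.18 for Mgp and from -1.002 to 0.0173 for the osteocalcin sum. The difference between the sets turned for Bglap3 at 0.62 with males only and 0.13 with sex as a covariate, ranging from -0.56 to 0.23 without 1 mouse, and for Enpp1 at -0.30 with males only. Equal sums moved the median difference of all genes from 0.04 to -0.09. The relation of Bglap2 to Mgp was 0.0469 on values with group means kept. Without the 2 farthest mice or without R-Het 3, 0 relations passed, but the fewer permutations there left a single relation unable to pass. The causes were not tested.

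Mice with the same replicate number did not deviate together in every pair (r from -0.084 to 0.259), so the numbers were not taken to pair them. As a hint from the data, every mouse of the P set, but not of the R set, correlated best with its own number, and replicate 3 was lowest for Slc20a2 in 4 of 4 groups. With the replicate block, 4 of the 10 genes were called in P-KO mice, with Smpd3 added (adjusted p = 0.0293), where limma called 92 of all genes lower and 181 higher. The pathway genes called in R-Het mice were 0 (69 and 21 of all genes). For the difference between the sets 2 passed, Smpd3 (0.0276) and Slc20a2 (0.0498), where 17 of all genes were called lower and 119 higher. Depth limits Bglap3, which rests on few fragments.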
